A study of Mus musculus with 20 samples.

Results

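The genes described here are the receptors and bridging proteins through which macrophages recognise and take up dying cells and modified lipoproteins: Mertk, Axl, Gas6, Pros1, Mfge8, Stab1, Msr1, Cd36 and Scarb1. These 9 genes were chosen by name as a set of efferocytosis and scavenger receptor genes, by a rule that uses no measured value although earlier results of these data were known, from a table of 59311 annotated genes, and each has 1 entry with its symbol. The libraries hold RNA of monocyte-derived macrophages (MoMac) sorted by their Ly6C level, Ly6C hi or Ly6C low, from the livers of 10 C57BL/6 mice. Every mouse had been injected, from an age of 10 to 12 weeks, with CCl4, a hepatotoxin that causes fibrosis, at 0.6 ml/kg for 4 weeks with 2 injections per week, and the cells were taken 2 days after the last injection. Mice 16 to 20 received Ac-6-FP (acetyl-6-formylpterin) at 0.25 mg/kg, a ligand that occupies MR1 and prevents the activation of mucosal-associated invariant T (MAIT) cells. Mice 11 to 15 received the vehicle. Both subsets were sorted from each mouse, which gave 4 groups of 5 libraries: Ly6C hi with vehicle, Ly6C hi with Ac-6-FP, Ly6C low with vehicle and Ly6C low with Ac-6-FP. The gate kept cells positive for CD11b and F4/80 and negative for Ly6G, CD11c and CD3, and all libraries came from CCl4-injured livers, so each comparison is either between subsets of a mouse or between vehicle and Ac-6-FP.

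Efferocytosis is the removal of apoptotic cells. Dying cells display phosphatidylserine, to which the soluble proteins encoded by Gas6, Pros1 and Mfge8 bind. Gas6 then engages the receptor tyrosine kinases Axl and MerTK (Mertk) and protein S (Pros1) engages MerTK, while Mfge8 links the dying cell to integrins. Stabilin-1 (Stab1) binds phosphatidylserine directly. Scavenger receptor A (Msr1), Cd36 and scavenger receptor class B type I (Scarb1) take up oxidised or modified lipoproteins and lipids, and can also bind dying cells. In the injured liver, the uptake of dead hepatocytes by macrophages is known as a step towards the resolution of inflammation.

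Values are normalized counts, that is, reads counted on a gene and divided by 1 size factor per library, on a linear scale that is not divided by gene length. Levels were therefore compared between libraries and not between genes. The reads counted on genes numbered 5693049 in the Ly6C low vehicle library of mouse 13 and between 10298994 and 18682437 in the other 19 libraries. The library of mouse 13 stood apart: 41.6% of 6652 commonly detected genes (those with a median of 100 or more normalized counts) had no read in it, against 0.316% to 13.1% in the other 19. Its values are given below, and values without that mouse stand beside those that it moved most. The libraries carried the label of their sort, since Ly6c2, which encodes Ly6C, lay between 4930.2 and 10012 in the Ly6C hi libraries and between 284 and 1014 in the Ly6C low libraries. Itgam (CD11b) and Adgre1 (F4/80) were above 0 in all 20 libraries, although Itgam was at 2.09, the value of 1 read, in the Ly6C low library of mouse 13. A difference is called where limma gave a Benjamini-Hochberg adjusted p below 0.05 over the 17248 genes whose mean normalized count reached 10 in at least 1 of the 4 groups. All 9 genes passed this filter, and log2 differences are on the log2(normalized count + 1) scale.

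In the comparison of the subsets within each mouse, 2 of the 9 genes were called. Cd36 was higher in Ly6C low and Msr1 was higher in Ly6C hi, in 10 of 10 mice each. Pros1 was also higher in Ly6C hi in 10 of 10 mice and Axl was higher in Ly6C low in 8 of 10, and these became calls without mouse 13. No gene of the 9 was called between Ac-6-FP and vehicle in either subset, where the largest separation was that of Scarb1, with higher values after Ac-6-FP. Mertk, Gas6 and Stab1 were at low counts or at 0 in most libraries. Over all genes tested, the subset comparison called 1.76% with the higher level in Ly6C hi, 3.44% with the higher level in Ly6C low and 5.19% in either direction, beside 2 of the 9 genes.

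**Figure D1:**
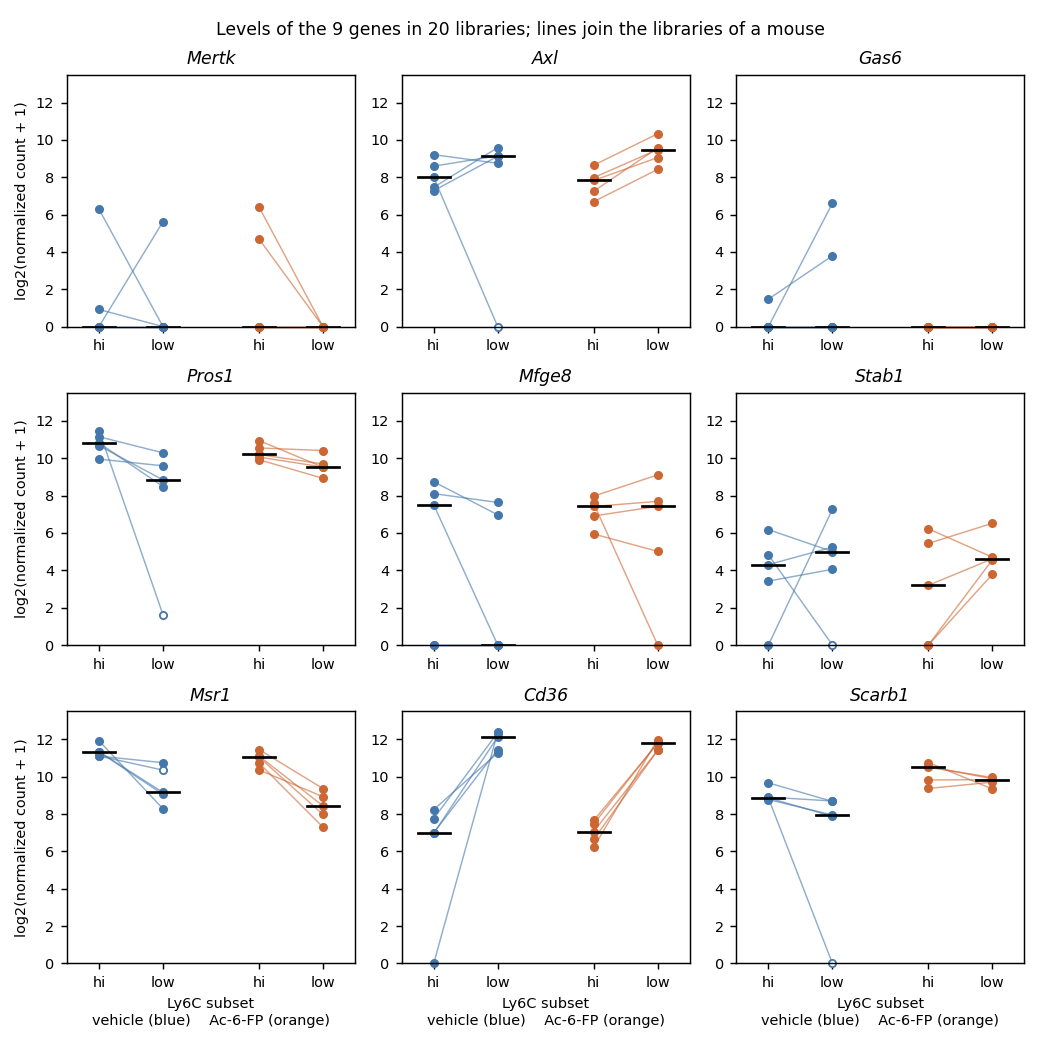
Each panel plots log2(normalized count + 1) of a gene on the y axis for Ly6C hi and Ly6C low libraries of vehicle mice (blue) and Ac-6-FP mice (orange). Points are libraries, lines join the libraries of a mouse, black bars are group medians and the open circle is the Ly6C low library of mouse 13. The lines of Cd36 slope up from hi to low in every mouse and those of Msr1 and Pros1 slope down, while most points of Mertk and Gas6 lie at 0.

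Cd36 is a class B scavenger receptor for oxidised low-density lipoprotein, long-chain fatty acids and thrombospondin, and works with integrins in the uptake of apoptotic cells. The entry lies at chr5:17781690-17888959 (mm10). In the Ly6C low libraries the normalized counts were 2479, 2812, 5305, 5256 and 4494.5 in vehicle mice 11 to 15. In Ac-6-FP mice 16 to 20 they were 2729, 3539, 4079.9, 3605 and 2733. In the Ly6C hi libraries they were 301, 127, 0, 216 and 124 in vehicle mice and 133, 201.4, 73.6, 177 and 99.1 in Ac-6-FP mice. The lowest Ly6C low library thus stood above the highest Ly6C hi library, with no overlap. The ratio of Ly6C low to Ly6C hi within a mouse had a median of 22.1 (range 8.24 to 55.4) over the 9 mice with reads in both libraries. Mouse 13 had 5305 in Ly6C low and 0 in Ly6C hi. No ratio is given for it, because 10.5% of the commonly detected genes had no read in that Ly6C hi library. On the log2 scale the difference, Ly6C hi minus Ly6C low, was -5.30 (SE 0.72, 95% interval -6.87 to -3.73, limma adjusted p = 0.000546, n = 10 mice). A two-sided exact sign-flip permutation test over the 10 mice gave p = 0.00195, the smallest it allows. Without mouse 13 the difference was -4.51 (limma adjusted p = 9.98e-07).

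The promoter of Cd36 is shown because this gene had the largest subset difference of the 9. It is the stretch of 250 bases before the start in the RefSeq table (build GRCm38.p6), at chr5:17835897-17836146 on the minus strand. The start lies inside the interval of the entry, which reaches 17888959. The bases that follow this start were not found near the beginning of any GENCODE transcript of Cd36. Which start these cells use was not tested. Capitals mark the only match to the 4 motifs searched on both strands, which were GAGGAA (the core of sites for PU.1, a myeloid transcription factor), TGANTCA (the AP-1 site), AGGTCA (the nuclear receptor half-site) and TTGCNNAA (a C/EBP-type site), with N for any base.
Cd36: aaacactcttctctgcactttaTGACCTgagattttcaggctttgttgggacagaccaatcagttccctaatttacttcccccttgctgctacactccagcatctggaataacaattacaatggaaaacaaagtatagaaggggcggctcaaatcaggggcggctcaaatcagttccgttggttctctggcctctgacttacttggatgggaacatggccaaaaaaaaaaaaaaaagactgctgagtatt
The match is AGGTCA on the opposite strand, which was present in 14.0% of the 32817 promoter windows of the same length in the table. GAGGAA was present in 23.3%, TGANTCA in 6.75% and TTGCNNAA in 9.57% of these windows. A match describes letters in the window, and the data at hand do not bear on binding there.

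Msr1 encodes scavenger receptor A, a trimeric receptor for acetylated and oxidised low-density lipoprotein and for bacterial surface components, and lies at chr8:39581685-39642679 (mm10). In the Ly6C hi libraries the normalized counts were 3898, 2203, 2210.4, 2589.8 and 2589 in vehicle mice 11 to 15. In Ac-6-FP mice 16 to 20 they were 1319, 2813, 2212, 2123 and 1705. In the Ly6C low libraries they were 311, 1726, 1309, 532 and 572 in vehicle mice and 487, 659.6, 347, 252 and 157 in Ac-6-FP mice. The Ly6C hi value was higher within every mouse, although the Ly6C low library of mouse 12 (1726) stood above the Ly6C hi libraries of mice 16 and 20. The ratio of Ly6C hi to Ly6C low had a median of 4.53 (range 1.28 to 12.5) in the vehicle mice and of 6.38 (range 2.71 to 10.9) in the Ac-6-FP mice. The log2 difference, Ly6C hi minus Ly6C low, was 2.19 (SE 0.33, 95% interval 1.48 to 2.91, limma adjusted p = 0.00118, n = 10 mice), and the exact sign-flip test gave p = 0.00195. Without mouse 13 it was 2.35. Cd36 and Msr1 stayed called in 20 of 20 alternatives over mice of both treatments. In the 5 vehicle mice alone, where 0.458% of all genes were called, the differences were 1.84 for Msr1 (limma adjusted p = 0.497) and -5.93 for Cd36 (limma adjusted p = 0.407), so that neither was called. In the 5 Ac-6-FP mice alone, where 3.16% of all genes were called, Msr1, Cd36 and Axl were.

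Pros1 encodes protein S, a vitamin K-dependent plasma protein that bridges phosphatidylserine to MerTK and is also a cofactor of activated protein C. It lies at chr16:62854305-62929340 (mm10). In the Ly6C hi libraries the normalized counts were 1638, 1808, 2863, 2281 and 993 in vehicle mice 11 to 15 and 1072, 1503, 1982, 1179.9 and 972 in Ac-6-FP mice 16 to 20. In the Ly6C low libraries they were 459, 358, 2.09, 1254 and 774 in vehicle mice and 739, 1366, 736, 829 and 486 in Ac-6-FP mice. The value of mouse 13 is that of 1 read. The Ly6C hi library was the higher in each mouse, and the ranges of the subsets overlapped. Without mouse 13 the ratio of Ly6C hi to Ly6C low had a median of 1.82 (range 1.10 to 5.05). With all 10 mice the log2 difference was 1.89 (SE 0.79, limma adjusted p = 0.244) and was not called, although the exact sign-flip test on this gene alone gave p = 0.00195. Without mouse 13 it was 1.00 (limma adjusted p = 0.0284) and was called, in a fit that called 6.74% of all genes. The adjusted p ranged from 0.0030 to 0.473 over the 20 alternatives, 3 of which called Pros1.

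Axl is a receptor tyrosine kinase that binds Gas6 and is known from macrophages exposed to interferon or other inflammatory signals. It lies at chr7:25756500-25788733 (mm10). Normalized counts in Ly6C low were 768, 565, 0, 429 and 557 in vehicle mice 11 to 15 and 342, 1284, 529.6, 714 and 758 in Ac-6-FP mice 16 to 20. Those in Ly6C hi were 175, 385, 254, 591 and 154 in vehicle mice and 102, 399, 227, 251 and 151 in Ac-6-FP mice. Ly6C low was higher in 5 of 5 Ac-6-FP mice and in 3 of 5 vehicle mice, mice 13 and 14 being the exceptions. Over the 9 mice other than mouse 13 the ratio of Ly6C low to Ly6C hi had a median of 3.22 (range 0.726 to 5.01). With all 10 mice the log2 difference, Ly6C hi minus Ly6C low, was -0.45 (SE 0.87, limma adjusted p = 0.805). Without mouse 13 it was -1.39 (limma adjusted p = 0.0167), and the exact sign-flip test over the 9 mice gave p = 0.00781. The adjusted p ranged from 0.0167 to 0.968 over the 20 alternatives. With a covariate for genes detected, a fit that called 9.87% of all genes, the direction of Axl turned (0.11, limma adjusted p = 0.912). An annotation entry without a symbol covers the same interval with nearly the same values, and reads of either cannot be told apart where strand was not stated to be used. That entry had a difference of -1.26 without mouse 13 (limma adjusted p = 0.0348).

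The promoters of Pros1 and Axl are shown because these genes were called between the subsets in opposite directions once mouse 13 was left out. They are given for the same 250 bases before the RefSeq start. That of Pros1 lies at chr16:62854057-62854306 on the plus strand and that of Axl at chr7:25788734-25788983 on the minus strand (GRCm38.p6). The bases after the start were found near the beginning of a GENCODE transcript for Pros1 but not for Axl.
Pros1: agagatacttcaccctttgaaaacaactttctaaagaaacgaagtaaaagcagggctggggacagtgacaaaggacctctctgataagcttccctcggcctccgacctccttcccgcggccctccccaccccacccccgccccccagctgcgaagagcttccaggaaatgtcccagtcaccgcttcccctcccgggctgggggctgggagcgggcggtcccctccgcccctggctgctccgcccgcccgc
Axl: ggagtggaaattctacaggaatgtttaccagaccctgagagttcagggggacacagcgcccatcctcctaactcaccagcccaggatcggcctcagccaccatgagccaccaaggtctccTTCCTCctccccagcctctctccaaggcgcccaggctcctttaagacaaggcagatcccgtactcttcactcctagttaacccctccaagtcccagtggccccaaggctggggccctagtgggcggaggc
Capitals mark the match in the Axl window, GAGGAA on the opposite strand, and the Pros1 window held none of the 4 motifs. Of the promoter windows of Mertk, Gas6, Mfge8 and Stab1, those of Mfge8 and Stab1 held GAGGAA and no other motif, and those of Mertk and Gas6 held none. The share of G and C was 64.4% in the Pros1 window, 60.0% in that of Axl and 43.2% in that of Cd36.

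**Figure D2:**
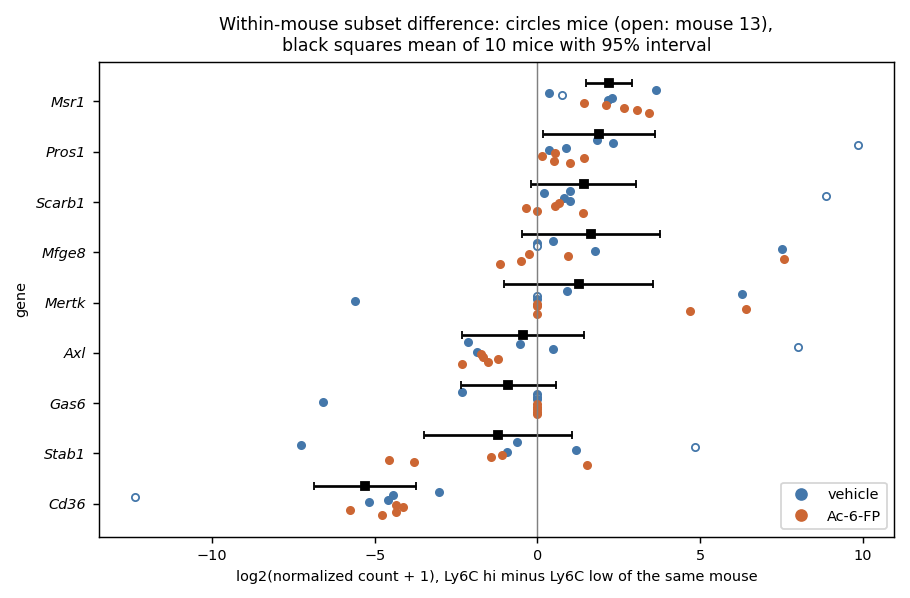
The x axis gives the log2(normalized count + 1) of Ly6C hi minus that of Ly6C low of the same mouse, for each gene on the y axis. Circles are mice (blue vehicle, orange Ac-6-FP, open mouse 13) and black squares are the means of 10 mice with 95% intervals. All circles of Msr1 and Pros1 lie above 0 and all of Cd36 below, and mouse 13 lies far from the other mice in Pros1, Scarb1, Axl and Cd36.

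Scarb1 encodes the class B type I receptor for high-density lipoprotein, which exchanges cholesterol with cells and also binds phosphatidylserine, and lies at chr5:125277089-125341094 (mm10). Normalized counts in Ly6C hi were 815, 479.6, 461.5, 438 and 467 in vehicle mice 11 to 15 and 1499, 1456, 662, 908 and 1731 in Ac-6-FP mice 16 to 20. Those in Ly6C low were 408, 415, 0, 246 and 234 in vehicle mice and 949, 995, 837, 918 and 649 in Ac-6-FP mice. Between the subsets, Ly6C hi was the higher in 5 of 5 vehicle mice and in 3 of 5 Ac-6-FP mice. The log2 difference was 1.41 (SE 0.75, limma adjusted p = 0.365) and, without mouse 13, 0.59 (limma adjusted p = 0.14), and neither passed. The covariate for genes detected gave 1.90 (limma adjusted p = 0.0105), the only call among 20 alternatives.

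Mfge8 encodes a secreted glycoprotein that binds phosphatidylserine and the integrins of the engulfing cell, and lies at chr7:79133769-79149060 (mm10). Normalized counts in Ly6C hi were 275, 0, 0, 182 and 428 in vehicle mice 11 to 15 and 170.5, 60.6, 191, 119 and 250.4 in Ac-6-FP mice 16 to 20. Those in Ly6C low were 198, 0, 0, 0 and 125 in vehicle mice and 206, 31.4, 0, 171 and 553 in Ac-6-FP mice. Ly6C hi was higher in 5 mice and Ly6C low in 3, and in the other 2 mice both were at 0. Mfge8 and the number of genes detected had a Spearman correlation of 0.93 across the 9 Ly6C low libraries other than that of mouse 13. Across the 10 Ly6C hi libraries it was 0.49. The part of gene detection in the counts of 0 was not tested. The log2 difference between the subsets was 1.63 (SE 0.98, limma adjusted p = 0.435).

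Mertk, the receptor tyrosine kinase most closely tied to the uptake of apoptotic cells by tissue macrophages, lies at chr2:128698915-128803007 (mm10). It was above 0 in 5 of 20 libraries. These were the Ly6C hi libraries of mice 11, 12, 18 and 19, with normalized counts of 0.89, 77.1, 84.0 and 24.9, and the Ly6C low library of mouse 15, with 48.2. No mouse had reads in both of its libraries. By counting error alone, a count of 0 allows up to 3 reads, which is a normalized count of 1.87 to 6.26 depending on the library. Levels below this were not detectable, and a gene missed by a library could lie above it. The log2 difference between the subsets was 1.27 (SE 1.06, limma adjusted p = 0.570), and 0.70 to 2.03 when each mouse was left out.

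Gas6, the ligand with the highest affinity for Axl, lies at chr8:13465374-13494535 (mm10) and was above 0 in 3 of 20 libraries, all from vehicle mice. Its normalized counts were 1.77 and 12.9 in the Ly6C hi and Ly6C low libraries of mouse 11 and 96.4 in the Ly6C low library of mouse 15. It passed the filter through the Ly6C low vehicle group alone. The log2 difference between the subsets was -0.89 (SE 0.68, limma adjusted p = 0.531), with 8 of 10 mice at 0 in both libraries. Without mouse 15 it was -0.26 (limma adjusted p = 0.663). An entry without a symbol covers the same interval, was above 0 in 2 libraries and had a difference of -0.99 (limma adjusted p = 0.485), and reads of either cannot be told apart.

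Stab1, a large receptor for phosphatidylserine and for oxidised lipoproteins that is also found on sinusoidal endothelium, lies at chr14:31139013-31168641 (mm10), where its end overlaps Nt5dc2. Normalized counts in Ly6C hi were 9.74, 0, 27.4, 71.5 and 18.8 in vehicle mice 11 to 15 and 42.5, 8.19, 0, 0 and 73.8 in Ac-6-FP mice 16 to 20. Those in Ly6C low were 15.6, 154, 0, 31.1 and 36.9 in vehicle mice and 90.8, 23.6, 22.7, 12.9 and 25.04 in Ac-6-FP mice. Ly6C low was the higher in 7 of 10 mice, and the ranges overlapped. The log2 difference was -1.22 (SE 1.04, limma adjusted p = 0.584), and -1.89 without mouse 13 (limma adjusted p = 0.307). Without mouse 12 it was -0.54 (limma adjusted p = 0.782).

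Over the 9 genes the median log2 difference between the subsets was 1.27, beside -0.03 over all genes tested, and 5 of the 9 were positive. This median is the value of 1 gene, Mertk, which was at 0 in 15 of 20 libraries. Without mouse 13 the median was 0.59 beside -0.17. The 9 genes did not share a direction, and the receptors Cd36 and Msr1, both of them lipid scavengers, differed in opposite directions.

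Transcripts of other cell types moved with the subset as well. The sum of 7 marker genes of T and NK cells lay between 0 and 589 in the Ly6C hi libraries and between 22013 and 49079.6 in the Ly6C low libraries, led by Nkg7, while Cd3e was at 0 in 18 of 20 libraries. The sum of 8 dendritic cell markers lay between 83.8 and 535 in Ly6C hi and between 8890.0 and 22243 in Ly6C low, led by Cd209a, and Itgax (CD11c, which the gate excluded) was at 0 in 10 of 10 Ly6C hi libraries and above 0 in 9 of 10 Ly6C low libraries, with a median of 1508 and a highest value of 3302. Other dendritic cell markers were low: Zbtb46 was at 0 in 16 of 20 libraries, and the Ly6C hi and Ly6C low medians were 0 and 14.9 for Clec9a and 0 and 69.7 for Xcr1. For Ccr7 they were 0 and 2067. The sum of 10 hepatocyte markers, led by Apoa2, lay between 678 and 1434 in Ly6C hi and between 1796 and 4283 in Ly6C low. Of these markers, Cps1 was at 0 in 19, Cyp2e1 in 18 and Apob in 17 of 20 libraries. The sums of these 3 lists did not overlap between the subsets, and neither did that of 6 Ly6C hi monocyte markers, led by Chil3, which lay between 100242 and 202278 in Ly6C hi and between 8613 and 31533 in Ly6C low. The part of these cells in the differences of Cd36, Msr1, Pros1 and Axl was not tested, and in RNA from sorted populations fewer cells of a type and less RNA per cell cannot be told apart. The other sums overlapped. In Ly6C hi and Ly6C low respectively they were 63.0 to 950.3 and 0 to 1252 for 9 Kupffer cell markers (highest Clec1b, with Timd4 at 0 in 18 of 20 libraries), and 1528 to 4059 and 2678 to 6302 for 11 markers of sinusoidal endothelium (highest Fcgr2b, with Lyve1 at 0 in 19 and Stab2 at 0 in 18 libraries). Of this list, the medians in Ly6C hi and Ly6C low were 2115 and 2309 for Fcgr2b, 128 and 1204 for Pecam1, 0 and 129 for Oit3 and 0 and 99.2 for Clec4g. Of the Kupffer cell list, the median was higher in Ly6C hi for Clec1b (139 and 66.1). It was higher in Ly6C low for Vsig4 (0 and 53.7), Marco (0 and 55.3), Cd5l (0 and 37.4) and Cd163 (19.9 and 71.7). The sums were 0 to 968 and 0 to 306 for 10 stellate cell markers (highest Acta2, with Lrat, Des and Reln at 0 in every library), and 347 to 1374 and 183 to 1902 for 7 platelet markers (highest Ppbp, with Gp5 at 0 in every library). They were 4403 to 14665 and 699 to 27755 for 9 neutrophil markers (highest S100a8), and 80.2 to 743 and 0 to 1131 for 5 B cell markers (highest Cd79b, with Pax5 at 0 in every library). Single neutrophil markers separated in opposite directions: the medians in Ly6C hi and Ly6C low were 0 and 1268 for Ngp, 0 and 1455 for Camp and 0 and 309 for Cxcr2, against 1443 and 0 for Elane. They were 4296 to 22657 and 6820.4 to 50167 for 7 markers of Ly6C low macrophages and monocytes (highest Nr4a1, with medians of 11868 and 9007), and 8566 to 15406 and 2747 to 15873 for the 7 sorting markers (highest Ly6c2). Of the Ly6C low list, Treml4 did not overlap between the subsets (394 to 1938 in Ly6C hi and 2930 to 10464 in Ly6C low), and the median of Ace was 35.5 and 517.

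Genes of the same pathways outside the 9 were counted from lists. Of 15 tested efferocytosis receptors and bridging proteins, 2 were called with Ly6C hi the higher and 1 with Ly6C low the higher, with a median log2 difference of -0.15, beside 1.76% and 3.44% of all genes. Without mouse 13 there were 1 and 3 (2.28% and 4.45% of all genes), since Cd14 lost its call and Havcr2 (TIM-3), a phosphatidylserine receptor, and Itgav, the integrin chain to which Mfge8 binds, were called higher in Ly6C low (log2 differences -4.75 and -3.69, limma adjusted p = 0.0128 and 0.0315). Anxa1, a phosphatidylserine-binding protein known to promote the clearance of dying neutrophils, was at 24486.5 ± 5571 (SD, n = 10) in Ly6C hi and 10496 ± 2430.1 in Ly6C low, a log2 difference of 1.22 (limma adjusted p = 6.12e-05) with Ly6C hi higher in 10 of 10 mice. Cd14, a lipopolysaccharide co-receptor that also tethers apoptotic cells, differed by 0.75 (limma adjusted p = 0.0368), a call that was lost without mouse 13 (0.0603). Tgm2, a transglutaminase that acts with integrins in engulfment, was at 229.9 ± 127 in Ly6C hi and 1928 ± 1031 in Ly6C low and differed by -3.07 (limma adjusted p = 0.0152).

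Of 15 tested scavenger receptors outside the 9, 4 were called, all of them higher in Ly6C low, as were 3.44% of all genes. Without mouse 13 there was also 1 call with Ly6C hi the higher, beside 4 with Ly6C low the higher (2.28% and 4.45% of all genes). It was Clec7a (Dectin-1), with a log2 difference of 0.65 (limma adjusted p = 0.0346). Clec4n, the C-type lectin Dectin-2, was at 391 ± 220.4 (SD, n = 10) in Ly6C hi and 2354 ± 985 in Ly6C low (log2 difference -2.69, limma adjusted p = 2.51e-05), and was higher in Ly6C low in 10 of 10 mice. Cxcl16, a transmembrane chemokine that binds oxidised lipoprotein and phosphatidylserine, differed by -4.80 (limma adjusted p = 0.00327), also in 10 of 10 mice. Mrc1, the mannose receptor, and Marco, a class A receptor like Msr1, differed by -4.58 and -4.49 (limma adjusted p = 0.0305 and 0.0339), with 10 and 11 of 20 libraries at 0. Mrc1 passed the filter through the Ly6C low groups alone. Its means were 188 (vehicle) and 200 (Ac-6-FP) there, and 0.708 and 8.23 in Ly6C hi. The list median was -0.63.

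Of 17 tested regulators of these genes, 2 were called, both higher in Ly6C low, with and without mouse 13 (3.44% and 4.45% of all genes). Pparg, a nuclear receptor activated by fatty acids for which Cd36 is a textbook target, was at 53.2 ± 63.9 (SD, n = 10) in Ly6C hi and 745 ± 431 in Ly6C low (log2 difference -5.85, limma adjusted p = 0.00334). Nr1h3, the oxysterol receptor LXR alpha, for which Mertk is a known target, was at 167 ± 109 and 1363 ± 710.2 (log2 difference -3.76, limma adjusted p = 0.00192). Both were higher in Ly6C low in 10 of 10 mice. Of 12 find-me and don't-eat-me receptors, 1 was called: Pilra, an inhibitory receptor of myeloid cells, was higher in Ly6C low in 10 of 10 mice (log2 difference -1.04, limma adjusted p = 0.00149), beside 5.19% of all genes called in either direction. Without mouse 13 there were 3 calls beside 6.74% of all genes, the others being Pecam1 (CD31), an adhesion molecule, at -3.59 (limma adjusted p = 0.00206) and Lilrb4a, an inhibitory receptor, at 0.45 (limma adjusted p = 0.0489). Of 22 genes of engulfment signalling and corpse handling, limma called 0, with 3 at an unadjusted p below 0.05 (16.7% of all genes), and edgeR called 0. The lowest p of these was that of Abca1, a lipid exporter, with a difference of -3.10 (limma adjusted p = 0.120). Without mouse 13, Rac2, a GTPase of phagocytes, was called at -0.44 (limma adjusted p = 0.0299). With edgeR, 8 of the 10 list genes called by limma were called, and Cd14 (edgeR adjusted p = 0.0705) and Pparg (0.0669) were not. In the edgeR fit without mouse 15, 4 were called (Anxa1, Clec4n, Nr1h3 and Pilra). The median was -0.70 over the find-me list, 0.09 over engulfment signalling and 0.06 over the regulators.

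**Figure D3:**
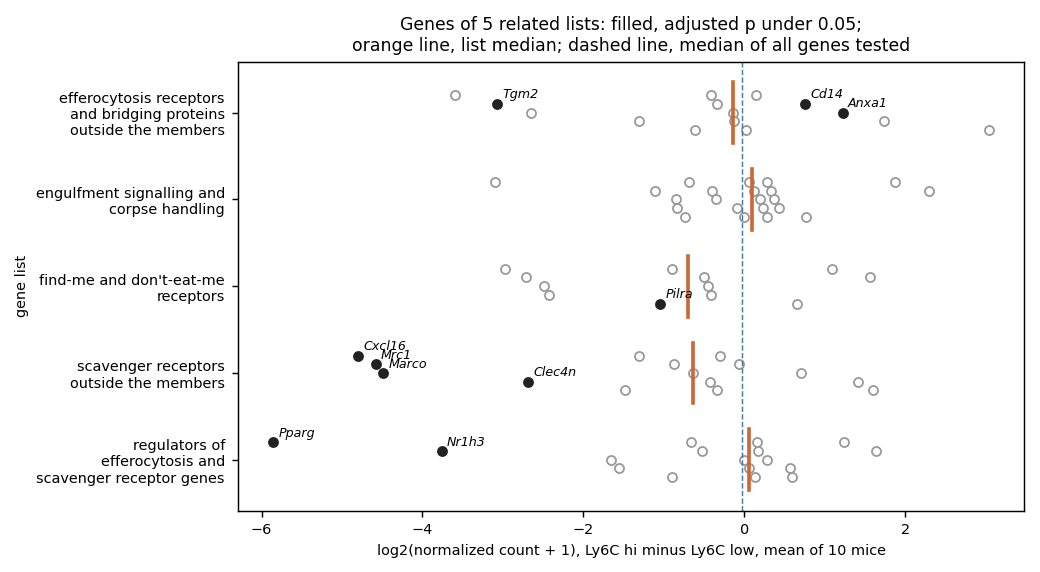
The x axis gives the mean log2(normalized count + 1) difference, Ly6C hi minus Ly6C low, over 10 mice, and the y axis the 5 lists of related genes. Filled circles are genes with an adjusted p below 0.05, orange lines are list medians and the dashed line is the median of all genes tested (-0.03). The 4 filled scavenger receptors lie between -4.80 and -2.69.

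Between Ac-6-FP and vehicle, limma called 0 of the 9 genes in Ly6C hi, in Ly6C low and for the difference of the effect between the subsets. At an unadjusted p below 0.05 there was 1 gene (Scarb1) in Ly6C hi and 0 in the other comparisons, where 8.73% of all genes passed that threshold in Ly6C hi, 9.31% in Ly6C low and 4.87% for the difference. Without mouse 13, Scarb1 passed it in Ly6C low, as did 7.07% of all genes. The edgeR fits called 0 of the 9 genes in each comparison. At the adjusted threshold, limma called 0.0754% of all genes in Ly6C hi, 0.0522% in Ly6C low and 0% for the difference. The libraries of Ac-6-FP mice held more genes: 11096 to 15587 were detected in Ly6C hi, against 9017 to 14606 with vehicle, and 11156 to 15766 in Ly6C low, against 5343 to 15723. The median log2 difference of all genes tested was 0.35 in Ly6C hi and 0.91 in Ly6C low, and -0.01 and 0.02 after quantile normalization. Over the 9 genes it was -0.29 in Ly6C hi and 0.52 in Ly6C low, and in Ly6C low without mouse 13 it was -0.12, beside 0.35 for all genes tested. A median of 9 genes is the value of 1 gene. Here -0.29 was that of Gas6 and 0.52 that of Stab1, both at low counts or at 0 in most libraries, so these medians do not describe a shift of the set.

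Scarb1 had the clearest separation. In Ly6C low, the 5 Ac-6-FP libraries (649 to 995) all lay above the 5 vehicle libraries (0 to 415), a pattern that 1.29% of all genes tested shared. In Ly6C hi the groups met, the vehicle library of mouse 11 (815) lying above the Ac-6-FP library of mouse 18 (662). The mean log2 difference, Ac-6-FP minus vehicle, was 1.19 in Ly6C hi (SE 0.30, 95% interval 0.52 to 1.86, limma adjusted p = 0.366, n = 5 per group). A two-sided exact permutation test gave p = 0.0159. In Ly6C low it was 3.11 (SE 1.56, limma adjusted p = 0.556), and without mouse 13 it was 1.45 (limma adjusted p = 0.227). The exact test in Ly6C low gave p = 0.00794 with and without mouse 13, the smallest either design allows. The difference stayed positive in all 19 alternatives in each subset (0.66 to 1.40 in Ly6C hi, 1.23 to 3.78 in Ly6C low) and was called in none. The lowest values, 0.66 and 1.23, came with the covariate for genes detected. Across the 10 Ly6C hi libraries, Scarb1 and the number of genes detected had a Spearman correlation of 0.82, and across the 9 Ly6C low libraries other than that of mouse 13 it was 0.17, libraries that differ in treatment as well. The part of gene detection in the difference was not tested beyond that covariate. The entry without a symbol that covers Scarb1 had differences of 1.18 in Ly6C hi and 1.38 in Ly6C low without mouse 13.

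**Figure D4:**
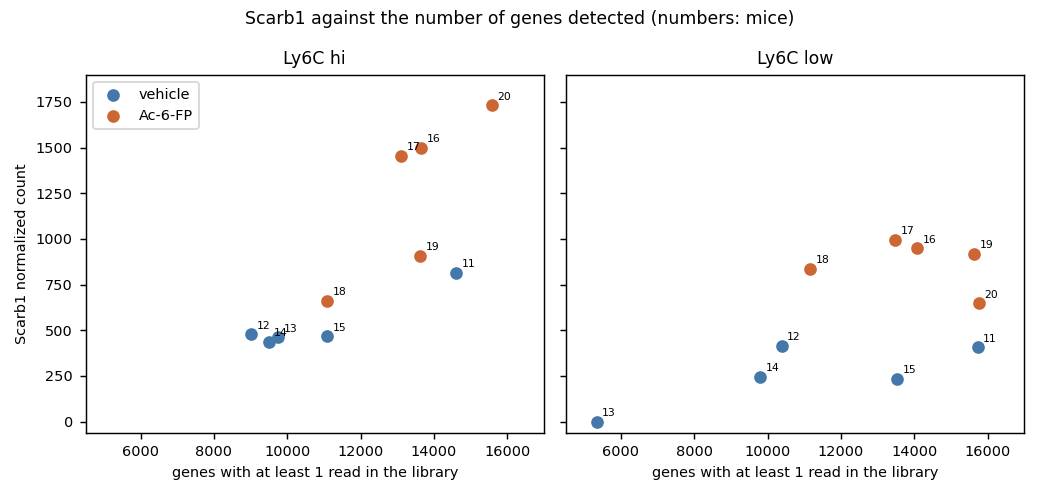
The y axis gives the normalized count of Scarb1 and the x axis the number of genes with at least 1 read in the library, for Ly6C hi (left) and Ly6C low (right). Points are libraries of vehicle mice (blue) and Ac-6-FP mice (orange), with the mouse number. In Ly6C low the orange points (649 to 995) lie above all blue points (0 to 415), and in Ly6C hi an orange point (662) lies below the highest blue point (815).

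For Msr1 the Ac-6-FP libraries were lower on average in both subsets, by a log2 difference of -0.42 in Ly6C hi (SE 0.23, 95% interval -0.94 to 0.10, limma adjusted p = 0.651) and -1.12 in Ly6C low (SE 0.56, 95% interval -2.37 to 0.13, limma adjusted p = 0.556). In Ly6C hi the Ac-6-FP library of mouse 17 (2813) stood above 4 of the 5 vehicle libraries. In Ly6C low the vehicle library of mouse 11 (311) was below the Ac-6-FP libraries of mice 16, 17 and 18, so the groups overlapped in both subsets. For Cd36 the difference was -0.23 in Ly6C low (SE 0.25, 95% interval -0.80 to 0.33, limma adjusted p = 0.660). In Ly6C hi it was 1.02 (SE 1.46), a value set by the vehicle library of mouse 13 at 0, since without that mouse it was -0.48 (limma adjusted p = 0.762). Pros1 differed by -0.48 in Ly6C hi (SE 0.30, limma adjusted p = 0.667) and by 1.85 in Ly6C low (SE 1.47), or 0.31 without mouse 13. Axl differed by -0.43 in Ly6C hi (SE 0.47, limma adjusted p = 0.745) and by 2.05 in Ly6C low (SE 1.73), or 0.22 without mouse 13. The 95% intervals in Ly6C hi reached from -2.07 to 6.66 for Mfge8, from -4.57 to 3.03 for Stab1 and from -3.20 to 4.76 for Mertk, so that large differences in either direction could not have been told from 0. Gas6 was at 0 in all 10 Ac-6-FP libraries. The difference of the Ac-6-FP effect between the subsets ranged from -2.48 for Axl to 1.90 for Mertk over the 9 genes, with limma adjusted p from 0.830 to 0.957. Without mouse 13 it was -0.68 for Axl and -0.63 for Pros1 (-2.33 with that mouse), and the range was -1.12 for Mfge8 to 2.23 for Gas6 (limma adjusted p from 0.820 to 0.999).

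**Figure D5:**
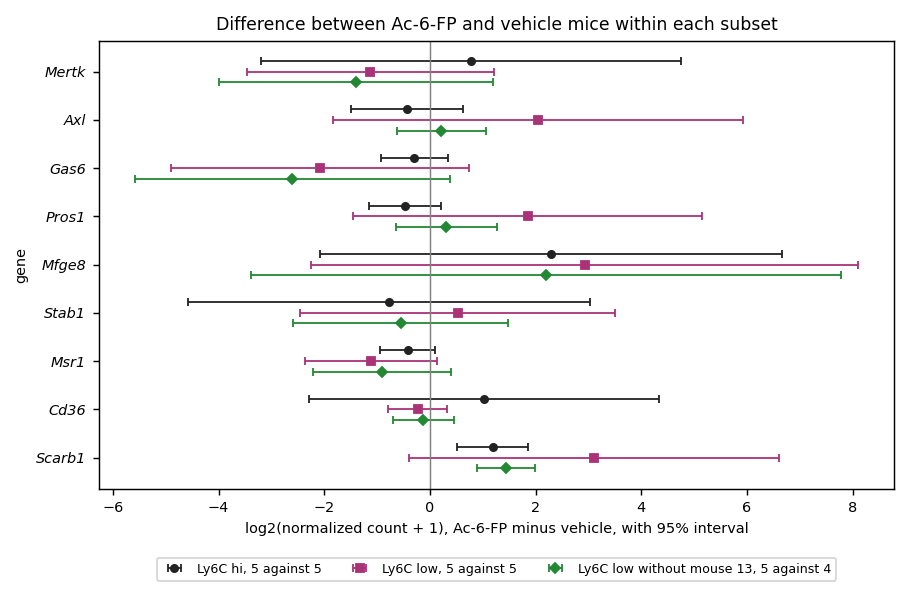
The x axis gives the mean log2(normalized count + 1) of Ac-6-FP minus vehicle with limma's 95% interval, for each gene on the y axis. Black circles are Ly6C hi and purple squares Ly6C low (5 against 5 mice), and green diamonds Ly6C low without mouse 13. Only the intervals of Scarb1 in Ly6C hi (0.52 to 1.86) and in Ly6C low without mouse 13 lie wholly on 1 side of 0.

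In the 5 related lists, limma called 0 genes between Ac-6-FP and vehicle in either subset and 0 for the difference between subsets, and edgeR called 0. At an unadjusted p below 0.05 the largest number was 5 of 17 regulators in Ly6C low (9.31% of all genes), and 7 of 17 without mouse 13 (7.07% of all genes). Among these Socs3, an inhibitor of cytokine signalling, was at 349 ± 40.4 (SD, n = 5) with vehicle and 934 ± 189 with Ac-6-FP (log2 difference 1.40, limma adjusted p = 0.0970). In Ly6C hi, Rxrb, a partner of LXR and PPAR receptors, was at 0.354 ± 0.792 with vehicle and 99.8 ± 77.4 with Ac-6-FP (log2 difference 5.96, limma adjusted p = 0.0611). Rxrb was at 0 in 8 of 20 libraries. The vehicle libraries of Ly6C hi also detected fewer genes (median 9749 against 13622), and the part of this in the difference was not tested. The median differences in Ly6C hi and Ly6C low were 1.32 and 1.40 over the regulators, 0.01 and 1.63 over the efferocytosis receptors, 0.03 and 1.51 over the scavenger receptors, 0.36 and 1.39 over the find-me list and 0.59 and 1.19 over engulfment signalling, beside 0.35 and 0.91 over all genes tested. In Ly6C low without mouse 13 they were 1.33 over the regulators, 0.47 over the efferocytosis receptors, 0.24 over the scavenger receptors, 0.77 over the find-me list and 0.72 over engulfment signalling, beside 0.35 over all genes.

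The genes most like 8 of the 9 across 19 libraries (without the Ly6C low library of mouse 13) were taken from 3548 genes above 0 in all of them, by Spearman correlation. Cd36 was most like Fpr1 (0.89), Treml4 (0.89) and Pilrb2 (0.89), and Msr1 was most like Manf (0.87), Rpl36al // Dnaaf2 (0.86) and Ifi204 (0.86). Pros1 was most like LOC100038947 // Sirpb1c (0.87), Klf13 (0.84) and Nfix (0.83). Axl was most like Tgm2 (0.82), Lair1 (0.81) and Agpat4 (0.80), and Scarb1 was most like Tpst2 (0.79), Gpr108 (0.75) and Gapdh (0.75). Mfge8 was most like Mlx (0.92), Myadm (0.84) and Urgcp (0.79), with 5 of the 19 libraries at 0. Stab1 was most like Tvp23a (0.76), Banf1 (0.69) and Rpl9 (0.67), with 3 at 0. Mertk, with 14 of 19 at 0, was most like Clk4 (0.78), Rassf3 (0.73) and Utp23 (0.70). The 19 libraries span both subsets and share their mice, so these values describe the libraries and carry no test.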

How the data were processed

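According to the submitters' processing notes and the study's methods, the authors aligned reads of 75 bases from low-input libraries to mm10 (STAR 2.4.0), counted those in the regions of each FAST DB gene that are not alternatively spliced, and scaled the counts with DESeq2. The deposited signal values are these normalized counts, 1 column per library, and columns were matched to mice and subsets by number and letter. Strand use was not stated, and the part of each gene that was counted is not given in the sources used here.

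Within a library, values step by the worth of 1 read. With this step, reads were recovered as whole numbers for 99.66% of nonzero values (tolerance 0.006). Reads per library ranged from 5693049 to 18682437, and the limit of 3 reads for a value of 0 covers counting error only. With limma 3.58.1 (R 4.3.3), log2(normalized count + 1) was compared between the subsets as the difference within each of 10 mice, between Ac-6-FP and vehicle within each subset (5 against 5 mice), and between treatments on the within-mouse differences. The variance prior followed the mean log2 level, and p-values were adjusted by Benjamini-Hochberg over 17248 genes. Exact permutation tests on single genes were two-sided, and 5 against 5 mice allow a smallest p of 0.00794. Labels give the strain and treatment of the mice and the study's methods their age, with no litter or cage for each mouse, so the p-values measure the spread between these mice. Both libraries of a number come from the same mouse, which is the pairing used, although their deviations from the group means correlated by a median of only 0.0338 (range 0.0033 to 0.25).

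Alternatives were pseudocounts of 0.1 and 10, no filter (24373 genes), a group mean of 100 (8784 genes), quantile normalization, genes detected as a covariate, array weights, edgeR 4.0.16 on the recovered reads (also without mouse 15, a choice made after seeing the data, since the step of its Ly6C hi library lies near 1), no pairing, single treatments, and leaving out each mouse. The 9 genes, the 5 pathway lists and the 12 marker lists were chosen with earlier results of these data known. Genes named for a call without mouse 13 were named after their values were seen. From each pathway list, at most the 4 called genes with the lowest p were named in each comparison, and where none was called at most 2. A gene of the pathway lists and the genes most like Gas6 are not reported here (likeness was given for genes above 0 in at least 5 of 19 libraries, a minimum set after seeing the data). Sequences and motifs were read from RefSeq promoters (GRCm38.p6), which matched 7 of the 9 genes, with Python 3.11.15. Fits were also run on simulated counts with known changes. These were drawn independently for each library, without a mouse effect and without genes lost from a library. They therefore do not bear on results that rest on counts of 0 or on mouse 13.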

Additional observations from a re-analysis of the deposited data

Results flagged for a closer look

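Within the groups of 5 libraries, 33 sets of values of the 9 genes were examined on the log2(normalized count + 1) scale for a highest or lowest library far from the rest (Dixon's test), and 9 had such a library. Chance would give about 1 in 20 for sets without tied values, a rate that does not apply where 4 of the 5 libraries were at 0 (Mertk in Ly6C low and Gas6 in Ly6C hi), since the remaining library then always stands apart. All 9 were in vehicle groups. The Ly6C low library of mouse 13 was the lowest for Axl (0), Pros1 (2.09) and Scarb1 (0), and the Ly6C hi library of the same mouse was the lowest for Cd36 (0). The Ly6C hi library of mouse 11 was the highest for Msr1 (3898), Scarb1 (815) and Gas6 (1.77, with the other 4 at 0). The Ly6C hi library of mouse 12 was the highest for Mertk (77.1), and the Ly6C low library of mouse 15 was the highest for Mertk (48.2, with the other 4 at 0). The causes were not tested.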

How the results depend on the processing

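Of 708 repeats of a single gene's difference under an alternative, 679 kept their direction and side of the threshold, 21 reversed, 6 became calls and 2 lost a call, and the causes were not tested. For the subsets, 896 genes and 2 of the 9 were called. Genes called numbered 1702 with genes detected as a covariate, 1512 with array weights, 584 with edgeR, 467 with edgeR without mouse 15, 79 in vehicle mice and 545 in Ac-6-FP mice, and 642 to 1162 when each mouse was left out. Members called numbered 4 with the covariate, 0 in vehicle mice, and 2 to 4 when each mouse was left out, the 4 being those without mouse 13. Without the pairing by mouse (no replicate block), 952 genes and 2 of the 9 were called between subsets, and 3 genes for the difference of the Ac-6-FP effect. In Ly6C hi, Ac-6-FP against vehicle called 13 genes, which became 5 with no filter, 4 at a group mean of 100, 0 with quantile normalization, with the covariate, with edgeR and with edgeR without mouse 15, and 0 to 133 when each mouse was left out (133 without mouse 11). In Ly6C low the 9 genes called became 2 with a pseudocount of 10, with no filter, with the covariate and at a group mean of 100, 0 with quantile normalization and both edgeR fits, and 0 to 103 when each mouse was left out (103 without mouse 11). The difference between subsets called 0 genes, 2 at a group mean of 100, 1 with quantile normalization and 0 to 4 when each mouse was left out.

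Reversals between subsets were those of Axl, from -0.45 to 0.11 with the covariate and 0.79 in vehicle mice. In Ly6C hi, Axl turned to 0.14 with the covariate, Mfge8 to -0.16 with edgeR, and Cd36 to -0.15 with edgeR and -0.23 with edgeR without mouse 15, and leaving out each mouse gave -0.48 to 1.58 for Cd36 and -0.27 to 1.99 for Mertk. In Ly6C low, the covariate turned Axl to -0.14, Mfge8 to -0.27, Cd36 to 0.027 and Stab1 to -0.35, and Stab1 was -0.95 with quantile normalization, -0.34 with array weights, -0.47 with edgeR, -0.55 with edgeR without mouse 15 and -0.55 to 1.26 when each mouse was left out. For the difference between subsets, Cd36 turned to -0.033 with array weights, and leaving out each mouse gave -0.36 to 1.98 for Cd36, -2.98 to 0.049 for Stab1 and -2.20 to 0.75 for Mfge8.

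In libraries where Mertk, Gas6, Stab1 or Mfge8 was at 0, a value of 0 allows up to 3 reads by counting error alone. At a group mean of 100 Mertk, Gas6 and Stab1 were not tested.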
